A study of Mus musculus with 6 samples.

Results

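The genes described here are named for the proteins of the cytosolic ribosome, 47 for its large subunit and 33 for its small subunit. They were taken by symbol (Rpl, Rplp and Rps followed by a number, and Rpsa), leaving out the Rps6k kinases, Rps19bp1 and symbols with -ps, and kept where the mean over the 6 libraries was at least 1 CPM (a read count relative to the depth of its library, as scaled by the authors). That left 80 of 87 such symbols, within 14523 genes tested and 24419 symbols in the table. Of the 80, 2 (Rpl37rt and Rps4l) are annotated as transcribed processed pseudogenes. RNA was sequenced from sorted cells of the cerebral cortex of male wild-type C57BL/6N mice, all of which had undergone 60 min of transient middle cerebral artery occlusion, a model of ischaemic stroke. The 15-HETrE group received 600 ng of 15-HETrE, a hydroxylated fatty acid, intravenously in 150 µL of phosphate-buffered saline in 3 doses, at 24, 48 and 72 h from the start of the stroke, and the vehicle group received vehicle on the same schedule. On day 4 the tissue next to the infarct was dissociated with pronase for 75 min, and cells positive for Thy1 and negative for ACSA2, CD31, CD45 and O4, a gate for neurons that leaves out astrocytes, endothelial cells, leukocytes and oligodendrocyte-lineage cells, were collected. No group without stroke is analysed here, so the values describe 15-HETrE against vehicle after stroke only.

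Each group has 3 libraries, called here 15-HETrE 1, 15-HETrE unnumbered and 15-HETrE combined, and vehicle 1, vehicle 2 and vehicle combined, after the names of their columns. The column names of 15-HETrE 1, vehicle 1 and vehicle 2 share a prefix, and 15-HETrE unnumbered carries another. The sources used here do not say what the prefixes or the word combined mean. Depth was 21324527, 16218335 and 7993084 reads over genes in 15-HETrE 1, unnumbered and combined, and 22558400, 21365984 and 5405245 reads in vehicle 1, 2 and combined. The combined libraries were thus the shallowest of each group. Values by library follow this order throughout, 1, unnumbered and combined for 15-HETrE and 1, 2 and combined for vehicle. The labels do not say whether libraries came from separate animals. Each p-value sets the difference between the groups only against the spread among these libraries, and that spread may be technical. In bulk RNA, fewer cells of a type and less RNA per cell cannot be told apart.

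Ribosomal proteins are made in near-equal numbers, since each mature ribosome holds about a single copy of most of them, and their mRNAs are among the most abundant in growing cells. In vertebrates most of these mRNAs begin with a C followed by a run of pyrimidines, the 5′ terminal oligopyrimidine (TOP) tract, through which the mTOR pathway and the RNA-binding protein LARP1 control their translation and stability. In neurons, ribosomes work in the cell body, dendrites and axons, and ribosomal protein mRNAs are also found in neurites.

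The shared start is shown for members whose annotated start fits the TOP pattern and, beside them, for members with the smallest p-values in the comparison. Each line gives 30 bases of RefSeq sequence on GRCm38.p6, 10 before and 20 from the annotated start, 5′ to 3′ on the gene's strand, with the pyrimidine run from the start in capitals.
Rpl15 (chr14:18270967-18270996, minus strand): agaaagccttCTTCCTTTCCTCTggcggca
Rps10 (chr17:27635225-27635254, minus strand): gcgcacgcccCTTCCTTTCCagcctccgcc
Rps6 (chr4:86857348-86857377, minus strand): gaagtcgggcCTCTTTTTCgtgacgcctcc
Rpl38 (chr11:114668570-114668599, plus strand): aagcctcgttCTTTCCCCgttctcttcggt
Rpl35a (chr16:33056472-33056501, plus strand): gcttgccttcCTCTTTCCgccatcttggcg
Rplp2 (chr7:141447641-141447670, plus strand): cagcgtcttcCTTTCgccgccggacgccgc
Rps27 (chr3:90213629-90213658, minus strand): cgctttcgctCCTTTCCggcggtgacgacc
Rps16 (chr7:28350679-28350708, plus strand): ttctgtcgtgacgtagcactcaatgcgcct
Rps12 (chr10:23787190-23787219, minus strand): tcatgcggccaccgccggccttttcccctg
Rpl10a (chr17:28328461-28328490, plus strand): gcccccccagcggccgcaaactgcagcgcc
The first 7 lines open with C and a pyrimidine run of 5 to 13 bases, and the last 3 do not. Rpl10a has another annotated start in the promoter table, also without a run. Of the 80 members, 60 matched a promoter entry by symbol, and 13 of these 60 (21.7%) had an annotated start of C followed by at least 4 pyrimidines, against 813 of the 27025 genes in the RefSeq promoter table (3.01%). Annotated starts can differ by a few bases from the starts used in these cells, so no match says only that these letters are not at the annotated base.

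The window from 50 bases before to 50 bases after the start was searched for 3 motifs on both strands. This window holds the start itself, so CTTTCC and CTCTTTC can be part of the pyrimidine starts counted above. CTTTCC stood on the sense strand in 18 of 60 members (30%) and 5.43% of all genes in the promoter table, and on either strand in 33.3% of members and 10.3% of genes. CTCTTTC, which can overlap CTTTCC, stood on the sense strand in 11 members (18.3%) and 1.62% of genes, and on either strand in 20% and 3.08%. CCGGAAG, the core of the ETS-family motif, stood on the sense strand in 15% of members and 3.18% of genes, and on either strand in 20% and 5.98%.

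Levels between genes are compared per length, as mean CPM per kilobase of transcript (median length of the gene's basic protein-coding transcripts in GENCODE M21). The median member stood at 132 CPM per kb. The 5 highest were Rplp1, a stalk protein, at 556 CPM per kb, Rpl41, the shortest ribosomal protein, at 464, Rps24, at 418, Rps15, at 337, and Rpl13, at 302. Most of the remaining members lay within a few-fold of the median, and 72 of 80 had a mean of at least 50 CPM before division by length. The lowest were Rps27, at 5.59 CPM per kb, and the paralogs Rps4l, at 11, and Rpl7l1, at 13.3.

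Some genes of the core ribosome were near 0 in every library. Rpl26 had no read in any library. Rpl30 had 8 reads in vehicle 2 and none in the other 5 libraries. Rpl34 had 14, 0 and 0 reads in the 15-HETrE libraries, and 43, 21 and 0 reads in the vehicle libraries, a mean of 0.599 CPM that put it just below the limit of 1 CPM. Rps27, at a mean of 1.93 CPM, stood just above the limit. Parts of these 4 transcripts also occur in other annotated genes: the share of their 50-base windows found elsewhere was 44.0% for Rpl26, 72.8% for Rpl30, 11% for Rpl34 and 46.2% for Rps27. Rps6 has a share of 84.6% and stood at 254 CPM per kb. The sources used here do not say how reads that match several genes were counted, and the part of such reads in these near-zero values was not tested. The remaining symbols below the limit were Rpl3l, a muscle paralog of Rpl3, the testis paralogs Rpl10l and Rpl39l, and Rps27rt.

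Summed over the 80 genes, the ribosomal protein mRNAs were at 6378, 7049 and 8885 CPM in the 15-HETrE libraries, and at 13473, 12966 and 8767 CPM in the vehicle libraries. Vehicle 1 and 2 stood above all other libraries, and vehicle combined lay inside the range of the 15-HETrE libraries, so the groups overlapped. As a share of all reads, the members took 0.657%, 0.728% and 0.822% in the 15-HETrE libraries and 1.28%, 1.35% and 0.902% in the vehicle libraries, and on this scale the groups did not overlap. The group means of the summed CPM were 7437 ± 1298 with 15-HETrE and 11735 ± 2583 with vehicle (SD, n = 3 each), a ratio of 0.634.

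**Figure D1:**
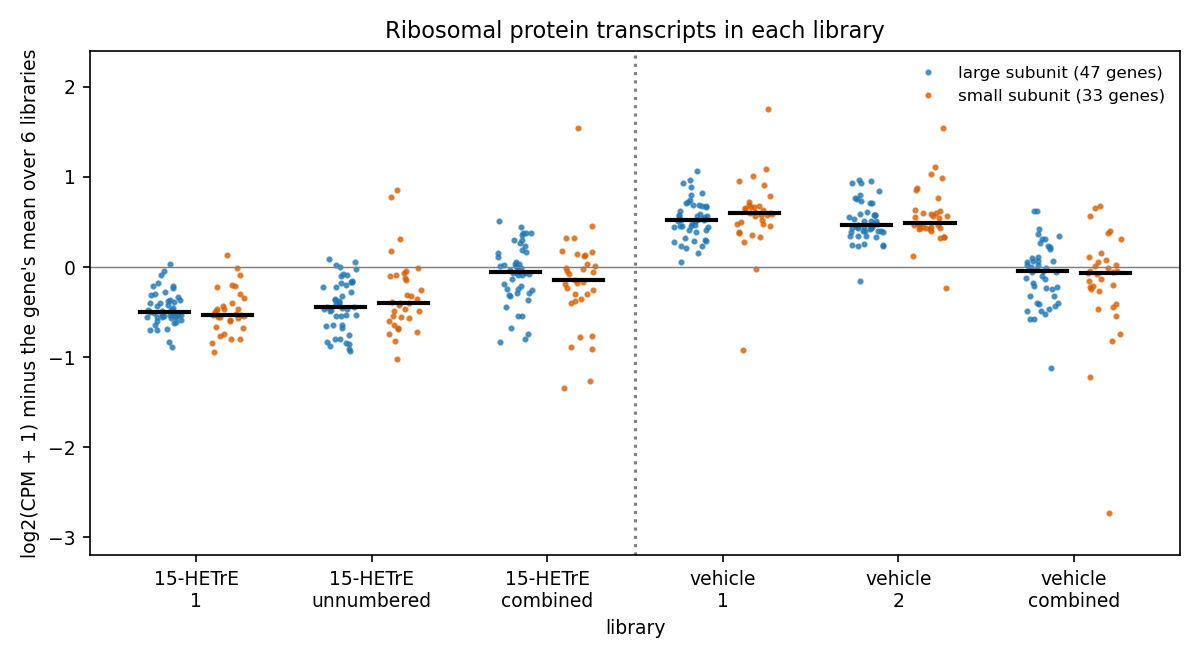
Log2(CPM + 1) of each of the 80 genes in each library, less the gene's mean over the 6 libraries, with a point per gene, colours for the 47 large-subunit and 33 small-subunit genes and a bar for their median. The genes lie highest in vehicle 1 and 2 and lowest in 15-HETrE 1 and unnumbered, and both combined libraries have medians near 0.

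Fold changes are differences in log2(CPM + 1), 15-HETrE minus vehicle, fitted with limma on the whole table. The median log2 fold change of the members was -0.64, against 0.02 for the median of all 14523 genes. It was below 0 for 78 of 80 members (97.5%) and for 49% of all genes tested. The quartiles of the members were -0.80 and -0.52, and 50 of 80 lay within 0.2 of the members' median. No member passed limma at an adjusted p under 0.05 (0% of all genes were called in either direction); the smallest adjusted p of a member was 0.334, for Rpl10a, and the smallest of any gene was 0.131. At an unadjusted p under 0.05, 37 members were lower (46.2%; 5.23% of all genes) and none higher (4.27% of all genes). For 34 members every 15-HETrE library was below every vehicle library (42.5%; 8.32% of all genes), and for 1, Rps27, every 15-HETrE library was above (6.84% of all genes). The members share their libraries, so these counts are not counts of independent results.

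On whole reads recovered from the deposited values, edgeR called 0 members after adjustment (0% of all genes) and had 34 lower (4.84% of all genes) and none higher (3.64% of all genes) at an unadjusted p under 0.05. DESeq2 called 1 member lower after adjustment, Rpl10a (0.895% of all genes called lower), and none higher (0.241% of all genes); at an unadjusted p under 0.05 it had 33 lower (6.1% of all genes) and 1 higher (4.57% of all genes). With limma's library weights, which give libraries that stand apart less influence, 68 members were called lower after adjustment (9.41% of all genes) and none higher (7.29% of all genes). The weights were 3.16, 0.508 and 0.441 for the 15-HETrE libraries and 1.82, 3.75 and 0.206 for the vehicle libraries, so these calls rest mainly on 15-HETrE 1 against vehicle 1 and 2. The count of 37 at an unadjusted p under 0.05 became 18 (4.03% of all genes) without 15-HETrE 1, 23 (5.2%) without 15-HETrE unnumbered and 44 (3.8%) without 15-HETrE combined. It became 15 (3.08%) without vehicle 1, 15 (2.56%) without vehicle 2 and 64 (9.15%) without vehicle combined.

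**Figure D2:**
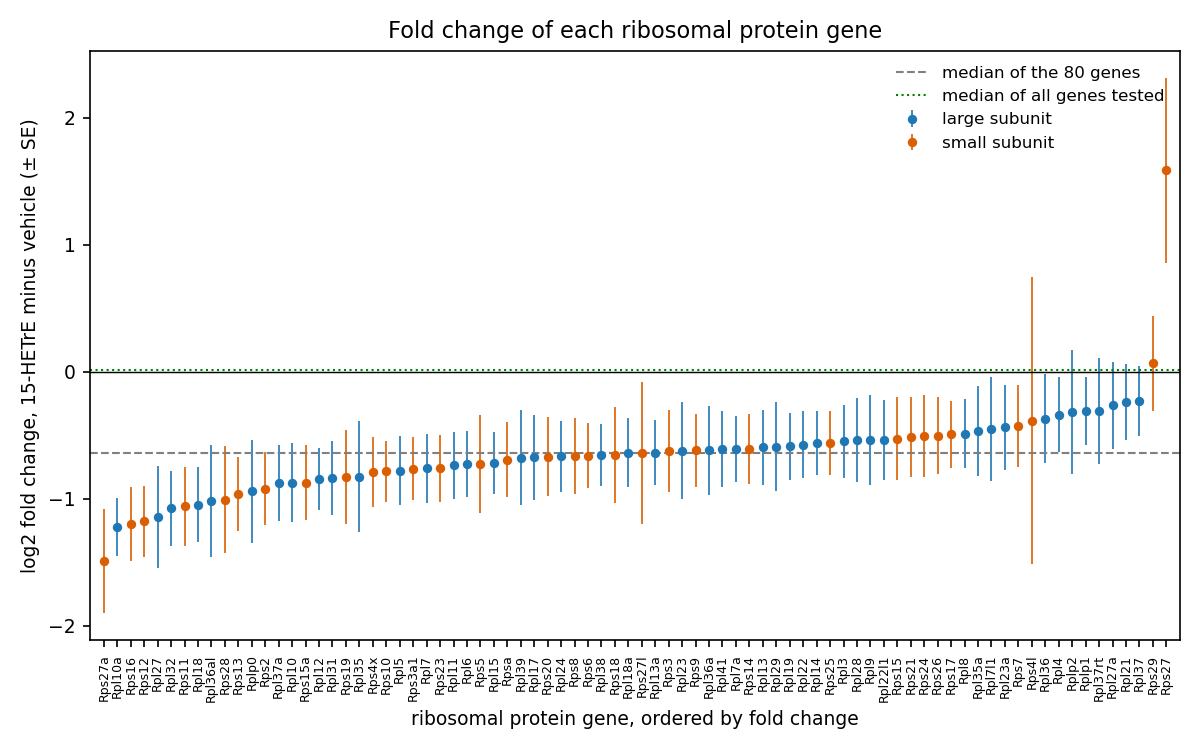
Log2 fold change (15-HETrE minus vehicle) with its standard error from limma for each of the 80 genes, ranked, with large- and small-subunit genes in different colours. The values run from -1.49 for Rps27a to 1.59 for Rps27, and 78 of 80 lie below 0.

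Both subunits stood lower in the 15-HETrE group. The 47 large-subunit genes summed to 4637 ± 837 CPM with 15-HETrE and 7160 ± 1551 CPM with vehicle (SD, n = 3 each), a ratio of 0.648, with a median log2 fold change of -0.62 and all 47 below 0. The 33 small-subunit genes summed to 2800 ± 466 CPM with 15-HETrE and 4576 ± 1032 CPM with vehicle, a ratio of 0.612, with a median of -0.66 and 31 below 0. The sum of the large-subunit genes was 1.68, 1.59 and 1.69 times that of the small-subunit genes in the 15-HETrE libraries, and 1.55, 1.57 and 1.58 times in the vehicle libraries. The groups were separate on this ratio by a small gap, between 1.588 in 15-HETrE unnumbered and 1.585 in vehicle combined. The groups did not overlap, with 15-HETrE lower, for 18 large-subunit and 16 small-subunit genes (8.32% of all genes). The difference between the subunits was not tested.

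Among large-subunit genes, Rpl10a (chr17:28328471-28331033, plus strand), a protein near the site where transfer RNA leaves the ribosome, stood at 64.1, 75.9 and 64.9 CPM in the 15-HETrE libraries, and at 161, 157 and 162 CPM in the vehicle libraries. All 3 vehicle libraries lay together, well above all 3 15-HETrE libraries. Its log2 fold change was -1.22 (SE 0.23), the smallest p of the 80 genes (limma adjusted p = 0.334; DESeq2 adjusted p = 0.00168 with a log2 fold change of -1.23). Rpl32 stood at 94.0, 78.4 and 112 CPM in the 15-HETrE libraries and at 219, 262 and 137 CPM in the vehicle libraries, with a log2 fold change of -1.07 (SE 0.29, limma adjusted p = 0.394). The groups did not overlap, with vehicle combined nearest to the 15-HETrE libraries.

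Rpl5 and Rpl11, which with the 5S ribosomal RNA form the particle that binds and inhibits Mdm2 when ribosome assembly fails, were separate between groups. Rpl5 stood at 130, 101 and 167 CPM in the 15-HETrE libraries, and at 245, 255 and 178 CPM in the vehicle libraries, with a log2 fold change of -0.78 (SE 0.27, limma adjusted p = 0.460). Rpl11 stood at 57.4, 61.8 and 49.2 CPM in the 15-HETrE libraries and at 104, 105 and 75.5 CPM in the vehicle libraries, with a log2 fold change of -0.74 (limma adjusted p = 0.461). Rpl13a, a protein that in human monocytes also leaves the ribosome to silence inflammatory mRNAs, stood at 118, 130 and 163 CPM with 15-HETrE and 234, 242 and 167 CPM with vehicle, again without overlap, with vehicle combined only slightly above 15-HETrE combined.

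The large-subunit genes with fold changes nearest 0 were Rpl37, at -0.23, and Rpl21, at -0.24. Rpl21 stood at 75.5, 74.9 and 137 CPM in the 15-HETrE libraries, and at 118, 118 and 91.4 CPM in the vehicle libraries. Here 15-HETrE combined was the highest of all 6 libraries. Of the highest-level genes, Rpl41 stood at 144, 209 and 222 CPM with 15-HETrE and 376, 315 and 200 CPM with vehicle, and Rpl13 at 183, 125 and 272 CPM with 15-HETrE and 276, 267 and 291 CPM with vehicle. In Rpl41 vehicle combined lay inside the range of the 15-HETrE libraries, and in Rpl13 15-HETrE combined came within the range of the vehicle libraries.

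Among small-subunit genes, Rps12, Rps16 and Rps27a were lowest relative to vehicle. Rps12 stood at 36.9, 44.8 and 65.0 CPM in the 15-HETrE libraries, and at 111, 108 and 107 CPM in the vehicle libraries, with a log2 fold change of -1.18 (SE 0.28, limma adjusted p = 0.358). Rps16 stood at 39.7, 64.3 and 37.4 CPM in the 15-HETrE libraries and at 116, 92.5 and 112 CPM in the vehicle libraries, with a log2 fold change of -1.20 (SE 0.29, limma adjusted p = 0.366). For both, as for Rpl10a, vehicle combined stood with the other vehicle libraries. Rps27a, made as a fusion with ubiquitin, stood at 82.9, 36.8 and 29.2 CPM with 15-HETrE and at 162, 151 and 84.7 CPM with vehicle, with a log2 fold change of -1.49 (SE 0.41, limma adjusted p = 0.394). Its groups were separate only by the small distance between 15-HETrE 1 and vehicle combined.

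Rps6, the substrate of the S6 kinases that is phosphorylated when mTOR is active, stood at 134, 213 and 175 CPM in the 15-HETrE libraries, and at 301, 291 and 227 CPM in the vehicle libraries, with a log2 fold change of -0.66 (limma adjusted p = 0.487). The groups did not overlap. Rpsa, also known as a laminin receptor, stood at 150, 160 and 220 CPM with 15-HETrE and 358, 323 and 193 CPM with vehicle, and Rps19, the gene most often mutated in Diamond-Blackfan anaemia, at 49.8, 46.4 and 51.4 CPM with 15-HETrE and 105, 135 and 48.0 CPM with vehicle. In both, vehicle combined lay among the 15-HETrE libraries. For Rps3, which also has a part in DNA repair, Rps24, Rps26 and Rps15 the groups overlapped, and the log2 fold changes were -0.63, -0.51, -0.50 and -0.53.

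The members with a fold change above 0 were Rps29 and Rps27, both of the small subunit. Rps29 stood at 52.7, 55.5 and 84.6 CPM in the 15-HETrE libraries, and at 80.9, 77.6 and 34.2 CPM in the vehicle libraries. The combined libraries held both the highest and the lowest value, so that its log2 fold change of 0.07 became -0.54 without them. Rps27 had 29, 54 and 43 reads in the 15-HETrE libraries and 5, 22 and 0 reads in the vehicle libraries, which is 1.32, 3.22 and 5.81 CPM with 15-HETrE and 0.234, 0.989 and 0 CPM with vehicle. Its log2 fold change of 1.59 (SE 0.73, limma adjusted p = 0.538) rests on few reads, and a count of 0 in vehicle combined allows up to 0.540 CPM (3 reads, counting error only).

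**Figure D3:**
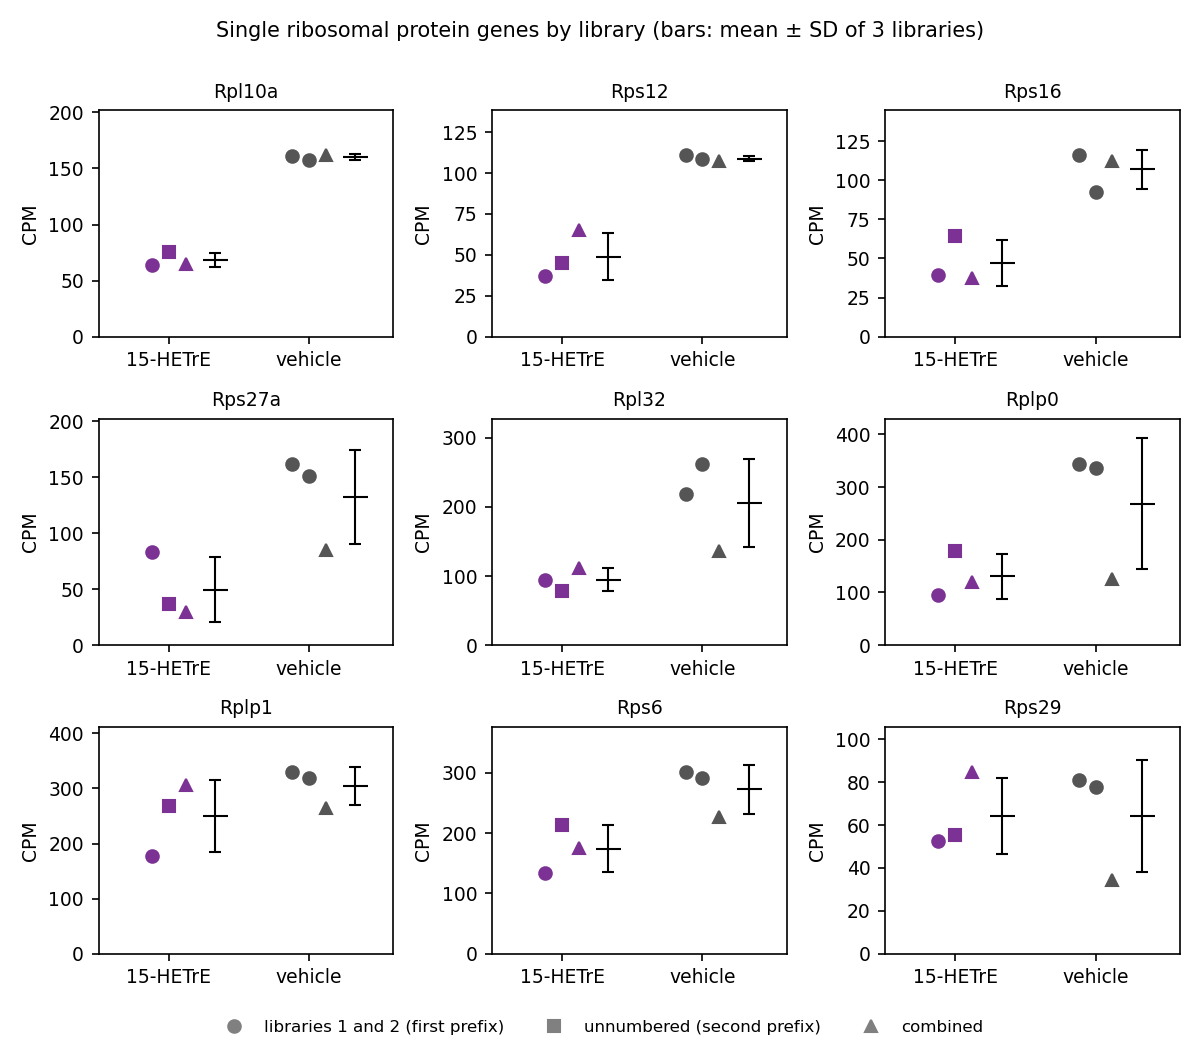
CPM of 9 ribosomal protein genes in each library, with a point per library, its shape giving the kind of column name, and the mean and SD of the 3 libraries beside each group. Rpl10a, Rps12 and Rps16 have all 3 vehicle libraries together above the 15-HETrE libraries, while in Rplp0 and Rps29 vehicle combined stands apart from vehicle 1 and 2.

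The 3 genes of the ribosomal stalk, which recruits the elongation factors, all had overlapping groups. Rplp0, the base of the stalk, stood at 94.6, 178 and 121 CPM in the 15-HETrE libraries, and at 344, 337 and 125 CPM in the vehicle libraries, with a log2 fold change of -0.94 (limma adjusted p = 0.513). Rplp1, which pairs with Rplp2 on the stalk, stood at 178, 268 and 306 CPM with 15-HETrE and 329, 319 and 265 CPM with vehicle, with a log2 fold change of -0.31. Rplp2 stood at 42.2, 51.0 and 38.8 CPM with 15-HETrE and 91.5, 80.5 and 21.9 CPM with vehicle, with a log2 fold change of -0.32. In each, vehicle 1 and 2 were the highest libraries and vehicle combined lay inside or below the range of the 15-HETrE libraries.

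Paralogs of ribosomal proteins were set beside their partners. Rpl22l1, the paralog of Rpl22, had the higher level per length, at 93.6 CPM per kb against 35.6 for Rpl22, and their log2 fold changes were -0.54 and -0.57. In CPM, Rpl22l1 was at 81.1%, 52.4% and 77.8% of Rpl22 in the 15-HETrE libraries and 51.7%, 84.5% and 70.5% in the vehicle libraries, so the ratio did not separate the groups. Rpl36al was at 58.1%, 46.6% and 29.3% of Rpl36a with 15-HETrE and 71.4%, 53.7% and 49.6% with vehicle, with log2 fold changes of -1.02 and -0.62. Its ratio in 15-HETrE 1 stood within the vehicle range. Rpl7l1 was at 5.75% to 17.2% of Rpl7 with 15-HETrE and 8.60% to 10.5% with vehicle. Rpl37rt and Rps4l, annotated as transcribed processed pseudogenes, were at 19.1% to 24.8% of Rpl37 and 0.846% to 6.25% of Rps4x in the 15-HETrE libraries, and 17.0% to 29.3% and 0 to 7.02% in the vehicle libraries. Rps27l, at 37.3 CPM per kb, stood above Rps27, which had few reads in every library. Reads that match both copies of a pair could be split between them by the counting, so these ratios are uncertain where the copies are alike. The share of 50-base windows found in any other annotated gene was 5.16% for Rpl22 and 58.9% for Rpl22l1. It was 49.3% for Rpl7 and 7.48% for Rpl7l1.

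The 6 libraries did not place the members alike. Of the 80 members, 5 had their highest value in 15-HETrE combined and none in the remaining 15-HETrE libraries, against 42 in vehicle 1, 27 in vehicle 2 and 6 in vehicle combined. The lowest value was in 15-HETrE 1 for 35 members, in 15-HETrE unnumbered for 26, in 15-HETrE combined for 9, in vehicle combined for 10, and never in vehicle 1 or 2. Vehicle 1 stood above every 15-HETrE library for 74 members, vehicle 2 for 73 and vehicle combined for 37. For 38 of the 45 members whose groups overlapped, vehicle 1 and 2 both stood above every 15-HETrE library and vehicle combined did not.

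Within the prefix that 15-HETrE 1 shares with vehicle 1 and 2, the members had a median difference in log2(CPM + 1) of -0.998, with 79 of 80 lower in 15-HETrE 1, and in the pair of combined libraries the median was -0.02, with 44 of 80 lower in 15-HETrE combined. Over all genes the medians were 0.0037 and 0.081, with 7216 and 6542 of 14523 lower. The large-subunit and small-subunit medians were -0.98 and -1.08 within the shared prefix, and -0.01 and -0.04 between the combined libraries. With 15-HETrE unnumbered, which shares its prefix with no vehicle library, the median difference was -0.92 against vehicle 1, -0.93 against vehicle 2 and -0.33 against vehicle combined. Over all genes these medians were -0.085, -0.0026 and 0.084. Vehicle 1 and vehicle combined, of the same treatment, differed by a median of 0.63, against 0.20 over all genes. The 15-HETrE libraries also differed among themselves. The median of 15-HETrE 1 minus 15-HETrE combined was -0.49, against 0.056 over all genes. That of 15-HETrE unnumbered minus 15-HETrE combined was -0.33, against 0.021. The lower level with 15-HETrE was thus marked within the shared prefix and slight or absent between the combined libraries. The members' share of all reads was 0.822% in 15-HETrE combined and 0.902% in vehicle combined. The contrasts within the shared prefix and between the combined libraries each have only 1 15-HETrE library. Rpl10a, Rps16 and Rps27a were lower in 15-HETrE in both, with differences of -1.30, -1.36 and -0.91 within the shared prefix and of -1.30, -1.56 and -1.51 between the combined libraries. Leaving out both combined libraries gave a median log2 fold change of -0.98, with 0 members called by limma after adjustment (0.516% of all genes called lower) and 72 lower at an unadjusted p under 0.05 (9.75% of all genes).

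**Figure D4:**
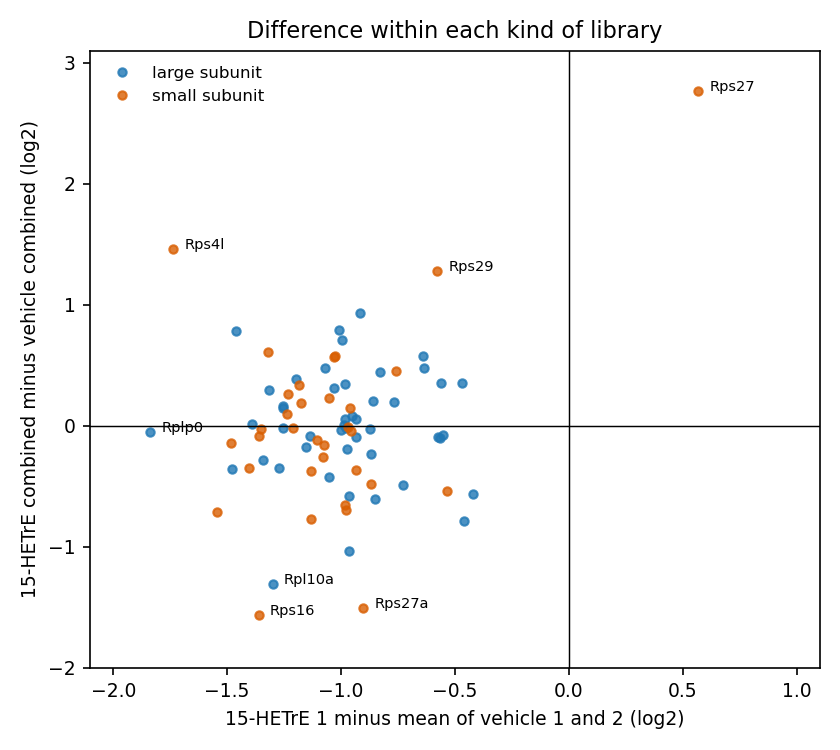
For each of the 80 genes, the difference in log2(CPM + 1) between 15-HETrE 1 and the mean of vehicle 1 and 2 on the horizontal axis, and between 15-HETrE combined and vehicle combined on the vertical axis, with large- and small-subunit genes in different colours. The median is -0.998 on the horizontal axis and -0.02 on the vertical axis.

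Other genes of the pathway were taken from lists of known function. Among 16 further genes with TOP mRNAs (elongation factors and similar), 15 were lower and 1 higher, with a median log2 fold change of -0.43, 6 lower at an unadjusted p under 0.05 (5.23% of all genes) and none called by limma after adjustment. Their median was -0.90 within the shared prefix and 0.02 between the combined libraries, beside -0.998 and -0.02 for the ribosomal proteins. Npm1, a nucleolar chaperone of ribosome assembly, stood at 147, 150 and 118 CPM in the 15-HETrE libraries, and at 422, 440 and 190 CPM in the vehicle libraries (log2 fold change -1.25, limma adjusted p = 0.394). The groups did not overlap. Pabpc1, which binds poly(A) tails, and Tpt1 had log2 fold changes of -1.07 and -0.77. Fau, which encodes a small-subunit protein outside the symbol rule, had a log2 fold change of -0.59.

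Of 20 ribosome biogenesis genes, 17 were lower and 3 higher, with a median log2 fold change of -0.35 and 1 lower at an unadjusted p under 0.05 (5.23% of all genes). Gnl3, a nucleolar GTPase, had -1.25 (limma adjusted p = 0.394). Of 13 regulators of TOP mRNAs and ribosome synthesis, 9 were lower and 4 higher, with a median of -0.08. Myc, a transcription factor that drives ribosome synthesis, stood at 20.3, 22.9 and 13.4 CPM in the 15-HETrE libraries, and at 53.2, 63.6 and 63.7 CPM in the vehicle libraries, without overlap (log2 fold change -1.65, limma adjusted p = 0.334). Larp1 had -0.43 (limma adjusted p = 0.658) and the S6 kinase gene Rps6kb1 had -0.23 (limma adjusted p = 0.815). In both the groups overlapped and vehicle combined was the highest library. The ribosomal proteins of the mitochondrion, 41 lower and 36 higher of 77, had a median of -0.06, and 75 genes of the respiratory chain, 35 lower and 40 higher, had a median of 0.01. None of these lists had a gene called by limma after adjustment.

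Marker genes of fibroblasts, pericytes and dividing cells were, like the ribosomal proteins, lower with 15-HETrE, and neuronal genes were higher, with none called by limma after adjustment. Of 8 endothelial genes, 6 were also lower and 2 higher, with a median log2 fold change of -0.71 and none called. The 10 pan-neuronal genes summed to 3197 to 6069 CPM with 15-HETrE and 1930 to 3280 CPM with vehicle, and 9 of 10 were higher (median log2 fold change 0.93). The 8 fibroblast genes summed to 1223, 2198 and 1271 CPM in the 15-HETrE libraries, and to 12684, 10320 and 1471 CPM in the vehicle libraries, with 8 of 8 lower and Postn at 0 in some library. Pdgfra, which is also in the list of oligodendrocyte precursors, made up most of this sum in 15-HETrE 1 and both combined libraries. It stood at 1035, 428 and 1228 CPM with 15-HETrE and 879, 1006 and 1382 CPM with vehicle. The fibroblast sum was high in the same vehicle libraries as the ribosomal proteins. The median difference of its genes was -5.27 within the shared prefix and -0.24 between the combined libraries. The 7 genes of dividing cells summed to 148 to 224 CPM with 15-HETrE and 496 to 639 CPM with vehicle, with 7 of 7 lower, medians of -1.82 and -2.17 in the same contrasts, and Cdk1 at 0 in some library. The 8 pericyte genes summed to 229 to 662 CPM with 15-HETrE and 897 to 1282 CPM with vehicle, with 8 of 8 lower. The part of these cell types in the ribosomal protein values was not tested.

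Markers of the cells the gate leaves out were present. In every library the oligodendrocyte genes summed to more CPM than the pan-neuronal genes, which ran from 1930 to 6069 CPM. In the combined libraries the astrocyte genes did too, against pan-neuronal sums of 5716 CPM with 15-HETrE and 2609 CPM with vehicle. Sums over different genes do not give shares of cells. The 9 oligodendrocyte genes summed to 16169 to 31626 CPM with 15-HETrE and 15072 to 22678 CPM with vehicle. The 8 astrocyte genes summed to 3658, 1340 and 20689 CPM in the 15-HETrE libraries and to 1032, 650 and 7606 CPM in the vehicle libraries. The combined library was the highest of each group on these genes, and in the same pair the ribosomal protein median difference was -0.02; the part of astrocyte RNA in this was not tested. The 10 microglia genes summed to 38.9 to 127 CPM with 15-HETrE and 42.7 to 171 CPM with vehicle, with Aif1 and Ptprc at 0 in some library, and the 8 endothelial genes to 46.8 to 102 CPM with 15-HETrE and 112 to 231 CPM with vehicle, with Tek and Emcn at 0 in some library. Of the 5 erythrocyte genes only Alas2 had reads, at 3.38 to 10.9 CPM with 15-HETrE and 1.45 to 2.65 CPM with vehicle. The hemoglobin genes of that list had no read in any library. The 6 genes of oligodendrocyte precursors, Pdgfra again among them, summed to 1585 to 2846 CPM with 15-HETrE and 1731 to 3585 CPM with vehicle.

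Ribosomal protein transcripts are short. The median member measured 776 bases, against 2731 bases over the 13950 genes with a length, and 62 of 80 were under 1000 bases. At each length the members stood below the other genes: up to 600 bases, 23 members had a median log2 fold change of -0.53 and 328 other genes -0.02; over 600 and up to 1000 bases, 39 members had -0.68 and 836 other genes -0.08; over 1000 and up to 2000 bases, 14 members had -0.65 and 3205 other genes -0.05. Among the other genes the medians above 2000 bases were higher, up to 0.09 over 8000 bases. A fit with each library's log2 values centred on length was run over the genes with a length. It gave a members' median log2 fold change of -0.49, with 78 of 80 below 0, and a median over all its genes of 0.05.

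**Figure D5:**
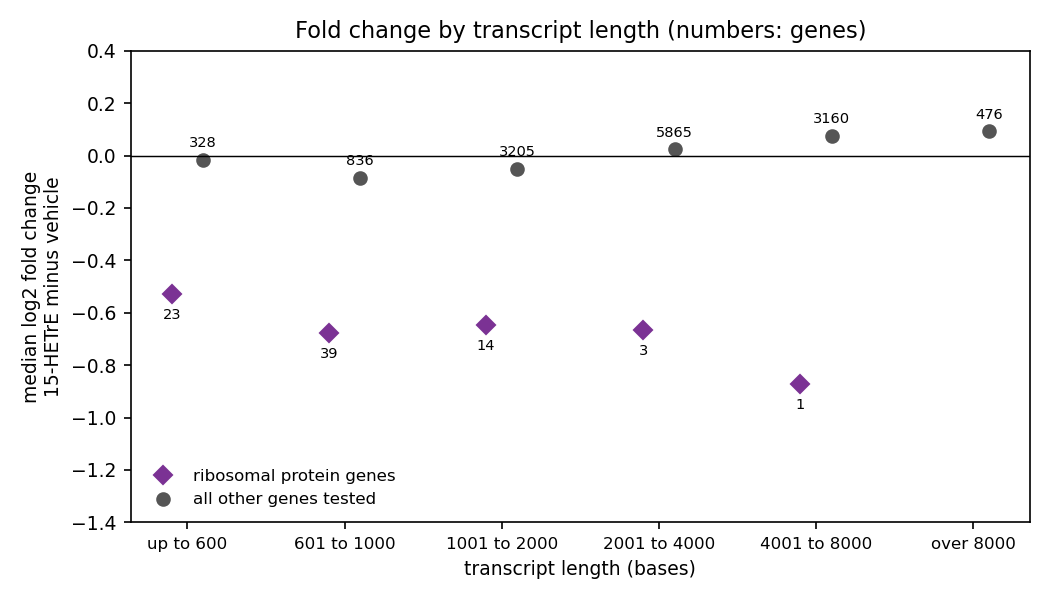
Median log2 fold change (15-HETrE minus vehicle) of the ribosomal protein genes and of all other genes tested, by transcript length in bases, with the number of genes beside each point. The members lie between -0.53 and -0.87 in the 5 lengths that hold any, and the other genes between -0.08 and 0.09.

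Members with and without other properties had medians near each other, and the differences were not tested. Those without a pyrimidine start had a median log2 fold change of -0.67, with 47 of 47 lower in the 15-HETrE group, and those with one had a median of -0.65, with 12 of 13 lower. The 80 genes lay on 19 chromosomes, with 14 on chromosome 7. Small nucleolar RNA genes, which guide modification of ribosomal RNA, lay inside 29 members (57 such genes), and the median log2 fold change of these was -0.67, against -0.62 in the members without any. Of 78 members with a value, 27 had over 50% of their 50-base windows in other annotated genes, with a median of -0.66 and 27 of 27 lower, and 51 had at most 50%, with a median of -0.64 and 49 of 51 lower. The summed CPM of those 51 had a ratio of 0.642 between 15-HETrE and vehicle. Across the 80 members, log2(CPM + 1) correlated between libraries with Pearson's r of 0.862 to 0.986, over genes that share length and annotation and are not independent replicates, while the level of the members as a whole differed between libraries.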

How the data were processed

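RNA was measured in 6 libraries. The authors deposited a table of a signal scaled as CPM. The submitters' processing notes name edgeR, featureCounts, HISAT2 and Trimmomatic and the mm10 build, and the sources used here give no versions or settings. All deposited signal values (100%) were whole multiples of 1 read within 0.0001 reads, so reads were recovered. The column sums carry the authors' scaling factors, so the test planned for CPM was applied to the scaled CPM. Column names gave each library's group.

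After a filter at a mean of 1 CPM, log2(CPM + 1), a scale that understates the change of low genes, was modelled in R 4.3.3 by limma 3.58.1 with treatment as the only term and a variance trend, two-sided, with Benjamini-Hochberg adjustment over the 14523 genes at a threshold of 0.05. Medians and sums over members have no test. edgeR 4.0.16 (quasi-likelihood) on the recovered reads called 0 genes and DESeq2 1.42.0 called 165. The fitting script was tested on simulated data. Positions and lengths come from GENCODE M21 on GRCm38, the assembly mm10 names, and start sequences from RefSeq on GRCm38.p6. Intervals and floors cover counting error only, since reads are not counted by molecular identifier. Members and lists were chosen with earlier results of these data known. Genes named are the 5 highest per kb, the 5 with the smallest p in each direction, paralogs with partners, the stalk, members with well known roles, and those with the largest and smallest range over libraries. Some genes that the rule takes are left out of the text.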

Additional observations from a re-analysis of the deposited data

How the results depend on the processing

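The settings tried were pseudocounts of 0.5 and 5, no filter, a filter at 5 CPM, 3 scalings, edgeR, DESeq2, prefix as a term, library weights, centring on length, and leaving out each library or both combined libraries. The members' median log2 fold change stayed below 0 in each. The count of members called by limma was 0 except with library weights, at 68 (28 of the named genes; 9.41% of all genes called lower), and DESeq2 called 1 (1 of the named genes). With library weights, which rest mainly on 15-HETrE 1 and vehicle 1 and 2, the median was -0.93 (large subunit -0.88, small subunit -1.01), and without both combined libraries -0.98 (large -0.94, small -1.02), which leaves 15-HETrE 1 and unnumbered against vehicle 1 and 2. Leaving out each library gave medians of -0.85 to -0.55 (large -0.80 to -0.54, small -0.94 to -0.54), 0 members called in each, and summed CPM ratios of 0.563 to 0.684; without both combined libraries the ratio was 0.508. Rps29 turned to -0.15 without 15-HETrE combined, -0.33 without vehicle combined, -0.54 without both and -0.45 with library weights. Rps4l turned to 0.15 without 15-HETrE combined, 0.40 without vehicle 1 and 0.30 without vehicle 2, and Rplp2 to 0.048 without vehicle 1; the cause was not tested. Over all left-out libraries Rps29 ran up to 0.28, Rps4l down to -1.84 and Rplp2 down to -0.96. Of 702 values of named genes under the alternatives, 665 kept direction and side of the threshold, 29 passed it and 8 changed direction. Of the 3 scalings, 1 repeated the scaling of the deposited values and gave the main fit again (median -0.64). Its values are among the 665 and could not have changed. The summed ratio was computed only for scalings and left-out libraries. No paired analysis was possible because the groups share only 1 replicate number in the column names; with the name prefix as a term, not a replicate number, the median was -0.59 and 0 members were called. The depth of the combined libraries limits genes of few reads, Rps27 among them.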
